A study of Mus musculus with 6 samples.

Results

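Heat shock chaperones are proteins that bind other proteins while these fold, refold or are assembled. The present account covers 10 of them, chosen by name from a table of 35275 genes: Hspa1a, Hspa1b, Hspa8, Hsph1, Dnajb1, Hsp90aa1, Hsp90ab1, Hspb1, Hspd1 and Hspe1. They were measured by RNA sequencing in mouse 3T3 cells, an immortalised fibroblast line from mouse embryos. The study set cells with a control construct (genotype label Control) against cells with an overexpression construct for NNMT, nicotinamide N-methyltransferase, the enzyme that methylates nicotinamide and uses S-adenosylmethionine to do so. Each group had 3 libraries, and all 6 came from cells kept for 48 h in methionine-free DMEM brought to 10 µM methionine, with 10% dialyzed FBS. The comparison addresses which genes respond to NNMT in that medium. The sources used here do not give the promoter or species of the construct, nor whether the cells of a group descend from 1 transduced population, and any difference between the starting populations cannot be told apart from a response to NNMT.

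In the cytosol, HSP70 proteins (Hspa1a, Hspa1b, Hspa8) bind unfolded stretches in a cycle of ATP binding and hydrolysis. J proteins such as Dnajb1 start that cycle, and HSP110 proteins such as Hsph1 end it by exchanging the nucleotide. HSP90 proteins (Hsp90aa1, Hsp90ab1) take over near-native clients such as kinases and steroid receptors, and the small heat shock protein Hspb1 holds unfolding proteins without using ATP. In the mitochondrial matrix, Hspd1 (HSP60) forms a barrel that is closed by the lid protein Hspe1 (HSP10). Heat shock factors, above all HSF1, raise many of these genes when proteins unfold, through repeats of the letters GAA and TTC in their promoters called heat shock elements. Hspa8 and Hsp90ab1 are known as the constitutive forms, and Hspa1a, Hspa1b and Hsp90aa1 as the more inducible forms.

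The promoters are shown first because related members share them. RefSeq start sites on GRCm38.p6 gave windows for 7 of the 10 members, and the 250 bases before the start were searched for heat shock elements on both strands. No window was available for Hspa8, Hsp90aa1 or Hsp90ab1, so their promoters were not examined. A 2-unit element was GAANNTTC or TTCNNGAA, and a 3-unit element was GAANNTTCNNGAA or TTCNNGAANNTTC, so that each 3-unit element also holds 2-unit ones. Below, capitals mark the element letters, and each sequence runs 5′ to 3′ toward its gene. The first is Hspa1b (chr17:34959239-34959488, minus strand), then Hsph1 (chr5:149636337-149636586, minus strand), Hspb1 (chr5:135887669-135887918, plus strand) and Hspe1 (chr1:55087898-55088147, plus strand).
Hspa1b: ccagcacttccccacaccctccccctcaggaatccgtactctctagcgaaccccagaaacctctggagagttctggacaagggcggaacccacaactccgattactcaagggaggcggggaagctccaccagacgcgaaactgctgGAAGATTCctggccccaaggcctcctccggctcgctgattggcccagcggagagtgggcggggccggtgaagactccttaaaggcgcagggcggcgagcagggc
Hsph1: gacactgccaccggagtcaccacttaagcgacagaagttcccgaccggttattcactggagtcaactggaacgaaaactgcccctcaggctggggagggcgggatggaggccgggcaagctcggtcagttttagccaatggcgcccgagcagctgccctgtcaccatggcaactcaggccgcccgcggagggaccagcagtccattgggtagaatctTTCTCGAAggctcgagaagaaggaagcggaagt
Hspb1: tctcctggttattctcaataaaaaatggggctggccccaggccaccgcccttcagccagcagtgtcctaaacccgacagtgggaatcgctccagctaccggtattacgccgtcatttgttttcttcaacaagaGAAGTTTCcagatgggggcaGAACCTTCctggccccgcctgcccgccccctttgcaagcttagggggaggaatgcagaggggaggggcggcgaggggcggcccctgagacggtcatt
Hspe1: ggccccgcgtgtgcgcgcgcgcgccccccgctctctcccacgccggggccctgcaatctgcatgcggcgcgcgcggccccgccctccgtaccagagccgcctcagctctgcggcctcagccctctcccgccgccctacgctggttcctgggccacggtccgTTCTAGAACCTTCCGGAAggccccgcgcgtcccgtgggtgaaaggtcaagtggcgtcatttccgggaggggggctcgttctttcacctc

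The run of capitals before Hspe1 holds 2 overlapping 3-unit elements, from 89 to 72 bases before its start. The same letters, read on the other strand, stand 144 to 127 bases before 1 of the 2 RefSeq starts of Hspd1. From that start, Hspd1 and Hspe1 are transcribed outward from this stretch of chromosome 1. The window before the other Hspd1 start (chr1:55088244-55088493) held no element. Seen from that start, the element lies inside Hspd1, and transcription runs through it. Among 32851 promoter windows of this length in the RefSeq table, 0.47% held a 3-unit element and 12.84% held a 2-unit one. The Hspa1a window matched that of Hspa1b at 247 of 250 bases and held the same GAAGATTC 104 to 97 bases before the start. Neither of the 2 Dnajb1 windows held an exact match to an element of either kind. Of these windows, 1 (chr8:83608298-83608547) lies inside the annotated gene, which begins at 83608193. Looser matches and sequence beyond 250 bases were not searched. The sequence match is a description of letters and does not show binding.

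Expression is given in FPKM, fragments per kilobase of transcript scaled to the library's total, the scale that the deposited values follow. Between 31622288 and 39982106 reads could be recovered per library. Nnmt went from 6.45 ± 1.18 to 16.3 ± 1.70 FPKM (SD, n = 3), higher in each NNMT library than in each control library. All 11 fibroblast markers (such as Col1a1, Vim and Pdgfrb) had a mean of at least 1 FPKM, and their summed level was 8176 to 8447 FPKM in control and 10357 to 11754 in NNMT libraries. The markers did not move together: 5 rose, among them Col1a1 (1815 ± 93.2 to 3624 ± 359 FPKM) and Col1a2, and 4 fell, namely Vim (1515 ± 6.04 to 1044 ± 40.3 FPKM), Thy1 (257 ± 18.8 to 120.2 ± 5.22 FPKM), S100a4 and Lum. The part of these shifts in the chaperone results was not tested. None of 6 epithelial and none of 6 endothelial markers reached 1 FPKM, with Epcam, Krt18, Krt19, Cldn4 and Cldn5 at 0, and of 6 leukocyte markers only Cd68 did, with Cd3e at 0. In bulk RNA, fewer cells of a type and less RNA per cell cannot be told apart. Of the NNMT columns, 1 carries no replicate number and is called the unnumbered NNMT library. Nothing says how the replicates were grown, so p-values measure only the spread between these libraries, which may be technical.

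Most of the chaperones expressed above trace level were lower in NNMT cells. A gene was tested where its mean reached 1 FPKM, as 8 of the 10 did. At an adjusted p under 0.05 (limma, adjusted over all 10882 genes tested), 6 were lower (Hspa1b, Hsp90ab1, Hspa8, Hsph1, Dnajb1 and, close to the threshold, Hsp90aa1) and 0 were higher. The mitochondrial pair Hspd1 and Hspe1 did not pass. By the same rule 65.6% of all tested genes were called, 35% as higher and 30.6% as lower, so the group comparison is one in which most genes moved. The median log2 fold change was -0.33 for the 8 chaperones and 0.028 for all genes tested. The groups did not overlap for 5 of the 8, all lower in NNMT cells, as for 32.7% of all tested genes. Each log2 fold change is the NNMT mean minus the control mean of log2(FPKM + 1), and the added 1 makes changes of low genes look smaller.

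**Figure D1:**
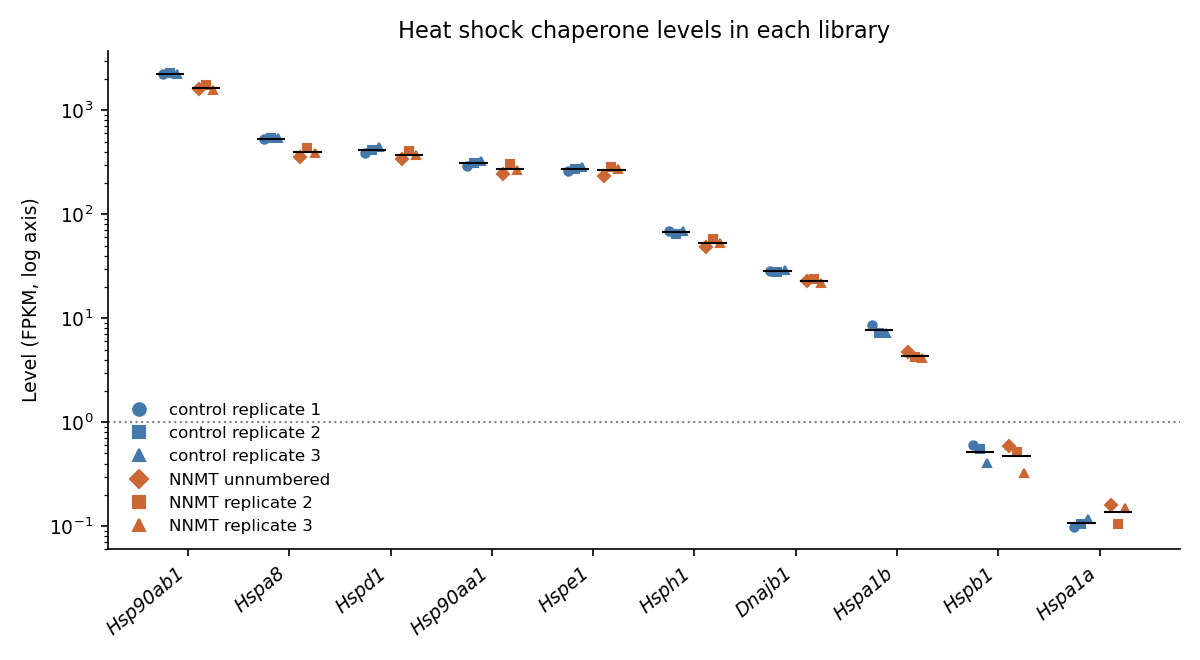
Level of each of the 10 chaperone genes in each library, in FPKM on a log axis, ordered by control mean, with black bars for group means and a dotted line at 1 FPKM, the mean needed for a test. Hsp90ab1 stood highest, at 2248 FPKM in control and 1635 in NNMT cells, Hspb1 and Hspa1a stood below 1 FPKM, and the order of the means was the same in both groups.

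The 10 genes spanned more than 4 orders of magnitude in level. In control cells Hsp90ab1 was at 2248 FPKM, the 10th highest of all genes in the table, followed by Hspa8 (535), Hspd1 (418), Hsp90aa1 (310.3), Hspe1 (271), Hsph1 (67.4), Dnajb1 (28.4), Hspa1b (7.63), Hspb1 (0.520) and Hspa1a (0.107). The order of group means was the same in NNMT cells. In control libraries no 2 neighbours in that order overlapped. Across NNMT libraries the range of Hspa8 overlapped with that of Hspd1, and the range of Hsp90aa1 with that of Hspe1. Within each NNMT library Hspa8 still stood above Hspd1. Hsp90aa1 stood above Hspe1 except in NNMT replicate 3 (269 against 276 FPKM). The summed FPKM of the 10 genes made up 0.899% to 0.927% of all FPKM in control and 0.721% to 0.801% in NNMT libraries, and Hsp90ab1 alone gave 57.1% to 58.5% and 53.2% to 56.0% of that sum.

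These levels depend on how reads from near-identical copies were counted, which the sources used here do not state. Of the 50-base stretches in the longest annotated transcript, 62.3% of Hspa1b and 60.3% of Hspa1a also occur in transcripts of another gene, mostly in each other. For Hsp90aa1 the share was 58.5%, for Hspb1 51.6%, for Hspa8 51.4% and for Hspd1 44.8%, mostly in processed pseudogenes. It was 8.2% for Hspe1, 4.5% for Hsp90ab1, 0.4% for Dnajb1 and 0.0% for Hsph1, so the 3 last are the least exposed to it. The pseudogenes listed with the most shared sequence had low levels of their own: Gm12346, which shares 51.5% of the stretches of Hsp90aa1, was at 4.06 FPKM in control and 3.54 in NNMT cells. Hspd1 and Hspe1 also share 112 exonic bases on opposite strands.

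Among the HSP70 genes, the inducible Hspa1b (ENSMUSG00000090877, chromosome 17, 34956436 to 34959238 in GRCm38, a single exon on the minus strand) changed most. It was at 8.53, 7.18 and 7.19 FPKM in control replicates 1, 2 and 3, and at 4.70, 4.23 and 4.13 FPKM in the unnumbered NNMT library and NNMT replicates 2 and 3. All NNMT libraries lay below all control libraries, with control replicate 1 standing above the other two. The mean fell from 7.63 ± 0.779 to 4.36 ± 0.306 FPKM, 42.9% lower, on 2235 and 1368 reads (log2 fold change -0.69, SE 0.075, limma adjusted p = 2.16e-05). With a pseudocount of 10, more than its own level, the log2 fold change was -0.30 (adjusted p = 3.18e-05). With the pseudocount of 1 this change was larger in size than that of 89.8% of tested genes.

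Hspa1a (ENSMUSG00000091971, chromosome 17, 34969190 to 34972156) lies beside it, with the near-identical promoter window described above. It was listed at 0.0990, 0.104 and 0.117 FPKM in control replicates 1, 2 and 3, from 10 to 12 reads each. The NNMT libraries had 0.160 (unnumbered), 0.105 (replicate 2) and 0.148 FPKM (replicate 3), from 11 to 19 reads. The groups overlapped, the level was too low for the test across genes, and p was 0.2 in a two-sided exact permutation test, where 3 against 3 cannot go below 0.1. A difference was not detectable at this depth. Hspa1a made up 1.15% to 3.47% of the sum of both genes in any library. With both summed into 1 feature, an alternative chosen after seeing the data, the level fell from 7.74 ± 0.773 to 4.49 ± 0.322 FPKM (log2 fold change -0.67, limma adjusted p = 2.53e-05).

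The constitutive Hspa8 (ENSMUSG00000015656, chromosome 9, 40800984 to 40810087, plus strand) had 528, 538 and 538 FPKM in the control libraries, in replicate order. NNMT replicates 2 and 3 had 437 and 386, and the NNMT library with no number had 356. The control libraries stood close together, the NNMT libraries were all lower and more spread, and the groups did not overlap. The mean fell by 26.5%, from 535 ± 5.98 to 393 ± 40.8 FPKM (log2 fold change -0.45, SE 0.067, limma adjusted p = 0.000191). Under quantile normalization the log2 fold change was -0.25 and still passed (adjusted p = 0.00569).

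Both HSP70 partners among the 10 genes were lower too. Hsph1 (ENSMUSG00000029657, chromosome 5, 149614287 to 149636376), the HSP110 exchange factor, was at 68.4, 64.9 and 69.0 FPKM in control replicates 1, 2 and 3 and at 47.9, 57.6 and 52.9 FPKM in the unnumbered NNMT library and replicates 2 and 3. Its mean fell by 21.7%, from 67.4 ± 2.20 to 52.8 ± 4.81 FPKM (log2 fold change -0.35, SE 0.064, limma adjusted p = 0.00077), without overlap between the groups. Dnajb1 (ENSMUSG00000005483, chromosome 8, 83608193 to 83612653), the J protein that HSF1 raises, was at 28.2, 28.1 and 29.0 FPKM in control replicates 1, 2 and 3 and at 23.0, 23.6 and 21.8 FPKM in the unnumbered NNMT library and replicates 2 and 3. It had tight groups and no overlap, and the mean fell by 19.8%, from 28.4 ± 0.50 to 22.8 ± 0.931 FPKM (log2 fold change -0.31, SE 0.048, limma adjusted p = 0.000251).

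Of the HSP90 genes, Hsp90ab1 (ENSMUSG00000023944, chromosome 17, 45567775 to 45573271) was at 2226, 2264 and 2253 FPKM in control replicates 1, 2 and 3. The unnumbered NNMT library held 1597 FPKM, NNMT replicate 2 held 1739 and replicate 3 held 1569. The control values stood close together, with an SD of 0.861% of their mean, and every NNMT value lay well below them. The mean fell by 27.3%, from 2248 ± 19.4 to 1635 ± 91.4 FPKM (log2 fold change -0.46, SE 0.048, limma adjusted p = 1.67e-05), on 592876 and 459641 reads. Under quantile normalization the log2 fold change was -0.21 and still passed (adjusted p = 0.00275).

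Hsp90aa1 (ENSMUSG00000021270, chromosome 12, 110690605 to 110702728) was at 293, 314 and 323 FPKM in control replicates 1, 2 and 3, and at 246, 306 and 269 FPKM in the unnumbered NNMT library and NNMT replicates 2 and 3. NNMT replicate 2 stood inside the control range, so the groups overlapped. The mean was 11.8% lower, at 310.3 ± 15.4 and 274 ± 30.4 FPKM (log2 fold change -0.19, SE 0.075, limma adjusted p = 0.0488). The call was lost without control replicate 2 (adjusted p = 0.119), control replicate 3 (0.155), the unnumbered NNMT library (0.152) or NNMT replicate 3 (0.123). The log2 fold change was -0.11 without the unnumbered NNMT library and with TPM scaling, and -0.09 under quantile normalization.

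The small heat shock protein gene Hspb1 (ENSMUSG00000004951, chromosome 5, 135887919 to 135889563) was low in every library. It was at 0.600, 0.552 and 0.407 FPKM in control replicates 1, 2 and 3, from 12 to 20 reads, and at 0.591, 0.517 and 0.326 FPKM in the unnumbered NNMT library and replicates 2 and 3, from 11 to 22 reads. The groups overlapped almost fully, with means of 0.520 ± 0.10 and 0.478 ± 0.137 FPKM (exact two-sided permutation p = 0.6). It was not tested across genes, and a difference was not detectable at this depth.

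The mitochondrial chaperonin genes did not pass the threshold. Hspd1 (ENSMUSG00000025980, chromosome 1, 55077835 to 55088243, minus strand), the barrel subunit, was at 391, 418 and 445 FPKM in control replicates 1, 2 and 3 and at 339, 408 and 369 FPKM in the unnumbered NNMT library and replicates 2 and 3. The groups overlapped through NNMT replicate 2, and the means were 418 ± 27.1 and 372 ± 34.7 FPKM (log2 fold change -0.17, 95% interval -0.33 to -0.01 before adjustment, limma adjusted p = 0.0569). It passed without control replicate 1 (adjusted p = 0.0334), without NNMT replicate 2 (0.00548) and with a replicate block in the 4 libraries with shared numbers (0.0325, against 0.0577 in these 4 without the block). It also passed under median of ratios scaling (log2 fold change -0.20, adjusted p = 0.0243) and with limma-voom on recovered reads (-0.17, 0.0408). With scaling on genes outside chromosomes X, Y, 4 and 16 it passed too (-0.22, 0.0151). The log2 fold change was -0.11 without the unnumbered NNMT library (adjusted p = 0.176), -0.12 without control replicate 3 (0.204), -0.06 under quantile normalization (0.33) and -0.09 with TPM scaling (0.225).

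Hspe1 (ENSMUSG00000073676, chromosome 1, 55088132 to 55091307, plus strand), the lid, was at 259, 273 and 282 FPKM in control replicates 1, 2 and 3 and at 235, 284 and 276 FPKM in the unnumbered NNMT library and replicates 2 and 3. The highest and the lowest of the 6 values were both in NNMT libraries. The means were 271 ± 11.5 and 265 ± 26.0 FPKM (log2 fold change -0.04, 95% interval -0.19 to 0.12, limma adjusted p = 0.637). The sign of its fold change was positive under quantile normalization (0.05) and TPM scaling (0.04), and no alternative passed the threshold.

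**Figure D2:**
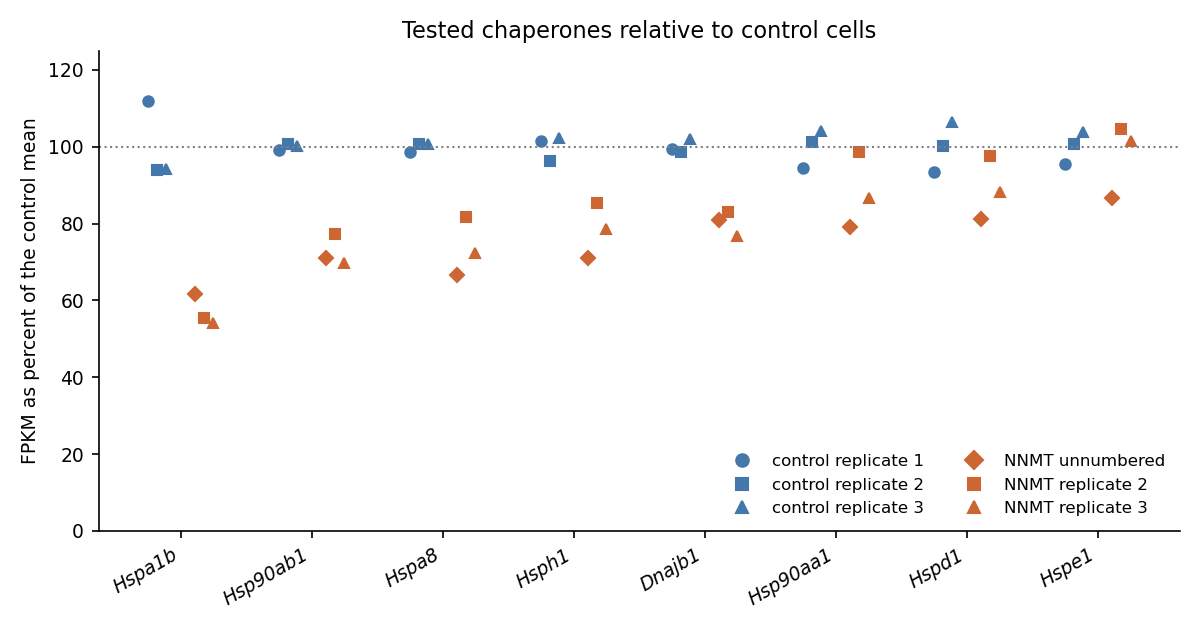
FPKM of the 8 tested chaperones in each library as a percent of that gene's control mean, ordered by log2 fold change. For Hspa1b, Hsp90ab1, Hspa8, Hsph1 and Dnajb1 all NNMT libraries lie below all control libraries, and for Hsp90aa1, Hspd1 and Hspe1 the groups overlap.

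Libraries within a group differed in a way that several chaperones shared. Of the NNMT libraries, replicate 2 was the highest for 7 of the 8 tested chaperones, all but Hspa1b, and it was the highest for 37.4% of all tested genes. The unnumbered library was the lowest for 5 of the 8 (Hspa8, Hsph1, Hsp90aa1, Hspd1 and Hspe1), against 42.3% of all tested genes. Among control libraries, replicate 3 was the highest for 6 of the 8, against 36.6% of all tested genes. In NNMT cells the SD of log2(FPKM + 1) was 0.158 for Hsp90aa1, 0.148 for Hspa8 and 0.145 for Hspe1, above 90.4%, 88.0% and 87.2% of tested genes. In control cells Hsp90ab1 and Hspa8 were among the steadiest genes, with SDs of 0.012 and 0.016 that only 3.77% and 6.42% of tested genes stayed under. The share of reads on mitochondrially encoded mRNAs was 0.478% to 0.568% in control and 0.609% to 0.717% in NNMT libraries, and its part in these results was not tested.

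Related members were also compared by their ratio within a library, which does not depend on how libraries are scaled. Hsp90aa1 stood to Hsp90ab1 as 0.132, 0.139 and 0.144 in control replicates 1, 2 and 3 and as 0.154, 0.176 and 0.172 in the unnumbered NNMT library and replicates 2 and 3. The ratio was higher in every NNMT library than in every control library, though Hsp90aa1 remained far below Hsp90ab1 in all 6, with means of 0.138 ± 0.00595 and 0.167 ± 0.0117 (log2 difference 0.27). Hspd1 stood to Hspe1 as 1.51, 1.53 and 1.58 in control and 1.44, 1.44 and 1.34 in NNMT libraries in the same order, with means of 1.54 ± 0.0357 and 1.41 ± 0.0597 (log2 difference -0.13) and again no overlap. Dnajb1 stood to Hspa1a plus Hspa1b as 3.70 ± 0.374 in control and 5.09 ± 0.36 in NNMT libraries, without overlap (log2 difference 0.46). The sum of Hspa1a and Hspa1b against Hspa8 overlapped between the groups (0.0145 ± 0.00162 and 0.0116 ± 0.00192, exact p = 0.3). For the other 3 of these 4 ratios p was 0.1 (exact permutation test, two-sided), the smallest that 3 against 3 allows, and 0.133 adjusted over the 4.

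**Figure D3:**
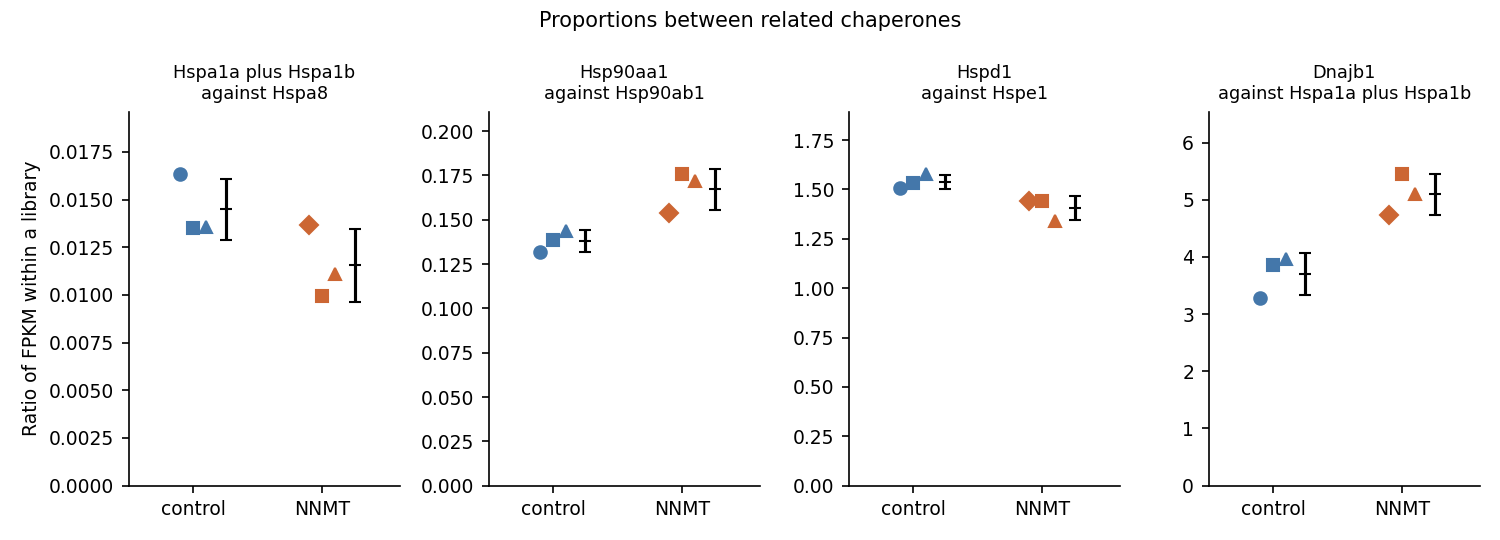
Ratio of FPKM between related chaperones in each library, with group mean and SD beside the points; circles, squares and triangles are replicates 1, 2 and 3 and the diamond is the unnumbered NNMT library. In 3 of the 4 panels the control and NNMT libraries do not overlap, and in the first they do.

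Position in the genome moved with some of these values. Tested genes within 5 Mb of Hsp90aa1, 57 in number, had a median log2 fold change of -0.24, and 33 of them were as low as or lower than Hsp90aa1 itself (-0.19). The 50 genes around Hspd1 and Hspe1 had a median of -0.17, equal to the value of Hspd1. For the other called members the surroundings differed more from the gene. The median was -0.10 for the 123 genes around Hspa1b, of which 3 were as low as Hspa1b or lower, and -0.04 for the 66 around Hsp90ab1, of which 8 were. It was 0.02 for the 49 around Hspa8, with 6 as low or lower. Around Dnajb1 and Hsph1 the medians were above 0, at 0.10 for 76 and 0.13 for 43 genes, of which 2 each were as low or lower. Over whole chromosomes the median was -0.15 on 17, which holds Hspa1b and Hsp90ab1, -0.17 on 12 (Hsp90aa1) and -0.08 on 1 (Hspd1 and Hspe1). It was 0.15 on 9 (Hspa8) and 0.16 on both 5 (Hsph1) and 8 (Dnajb1). The part of chromosome position in these results was not tested.

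Hspa1b, the member with the largest change, was compared with 10068 other tested protein-coding genes by the Euclidean distance between centred log2(FPKM + 1) profiles over the 6 libraries. The nearest were Dact1, a regulator of Wnt signalling (distance 0.0704), Rgmb, a BMP co-receptor (0.0852), Trnp1 (0.0895), the transcription factor Foxo4 (0.101) and Calm3, a calmodulin gene (0.111). The nearest other chaperone of the 10 was Hsp90ab1, at a distance of 0.382, the 736th nearest gene. The profiles are mostly the step between the groups, and no common function follows from the distance. The added 1 also shrinks the steps of low genes. The NNMT mean over the control mean was 0.47 for Dact1 and 0.42 for Trnp1, against 0.57 for Hspa1b. It was 0.57 for Foxo4, 0.62 for Calm3 and 0.63 for Rgmb.

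The wider chaperone network had calls in both directions. Of all tested genes 35% were called higher and 30.6% lower, the shares against which the network and each list below can be read. Of 94 tested genes in 9 lists of relatives, partners and heat shock genes, 36 were higher and 20 lower, with a median log2 fold change of 0.06. This split was 32 higher and 16 lower for 82 genes outside chromosomes X, Y, 4 and 16. With TPM scaling, chosen after the data were seen, it was 48 and 11, and for all tested genes 4732 and 2647 against 3806 and 3334. Without NNMT replicate 3 the network had 32 higher and 13 lower.

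HSP70 and its regulators moved in different directions. Of 4 tested HSP70 and HSP110 relatives, Hspa12b (8.72 ± 0.194 to 5.83 ± 0.678 FPKM) and Hspa4l (9.50 ± 0.636 to 7.47 ± 0.814 FPKM) fell, and Hspa2 rose from 8.31 ± 0.71 to 10.5 ± 1.58 FPKM, a call lost without control replicate 2 or 3, the unnumbered NNMT library or NNMT replicate 3 (adjusted p = 0.0625 to 0.0745). Hspa4, the second large HSP110 gene, was at 116 FPKM in both groups (log2 fold change -0.01). Among 9 exchange factors and co-factors of HSP70, 5 rose and 2 fell; none fell with TPM scaling, without control replicate 1 or without NNMT replicate 3, and 1 fell without control replicate 2. Bag2, an inhibitor of client ubiquitination by CHIP, rose 2.12-fold, from 20.03 ± 1.08 to 42.5 ± 2.32 FPKM (limma adjusted p = 1.72e-07). Bag3, which links HSP70 to selective autophagy and is itself raised by HSF1, rose 1.43-fold to 38.2 ± 1.34 FPKM, and St13, which stabilises the client-bound state, rose 1.35-fold to 131 ± 2.57 FPKM. Of 16 J proteins, 5 rose and 3 fell, against 3 and 3 without control replicate 1, control replicate 2 or NNMT replicate 3, and 7 and 2 with TPM scaling. Dnajb4 and Dnajb6 rose 1.34-fold and 1.19-fold, and Dnajc8, on chromosome 4, fell from 55.8 ± 0.867 to 44.0 ± 3.00 FPKM. Dnaja1, another J partner of cytosolic HSP70, stood at 35.4 and 34.9 FPKM (log2 fold change -0.02). Dnaja2, from the same list, rose from 82.8 ± 4.01 to 94.6 ± 6.75 FPKM (log2 fold change 0.19, limma adjusted p = 0.0184). That call was kept under 15 of 19 alternatives.

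HSP90 co-chaperones were mixed, with 4 of 16 higher and 5 lower, a balance that TPM scaling turned to 7 higher and 2 lower. It was 4 higher and 2 lower without any 1 of the control libraries or without NNMT replicate 3. Tomm70a, the mitochondrial import receptor that docks HSP90, rose 1.65-fold to 65.4 ± 2.54 FPKM on chromosome 16, where the median log2 fold change of 347 tested genes was 0.29. Cdc37l1 and the cyclophilin Ppid rose 1.30-fold and 1.34-fold. Stip1, the adaptor that passes clients from HSP70 to HSP90, was at 206 ± 3.88 and 212 ± 5.87 FPKM, and Fkbp4 was at 164 ± 3.63 and 167 ± 4.62 FPKM, neither passing. Unc45a fell by 0.27 on the log2 scale. In the CCT chaperonin and prefoldin list, which folds actin and tubulin, 5 of 14 fell and 1 rose, which under TPM scaling became 2 and 4. The counts were 3 and 1 without control replicate 3 or NNMT replicate 3, and 5 and 2 without the unnumbered NNMT library. These included Tcp1 (145 ± 3.42 to 118 ± 8.71 FPKM) and the X-linked Vbp1 (27.8 ± 1.72 to 13.02 ± 1.17 FPKM), while Cct8, on chromosome 16, rose 1.36-fold. On X the median of 338 tested genes was -0.70.

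Among the other mitochondrial chaperones, all calls were higher, here and under each of the 19 alternatives. Of 18 tested genes for mitochondrial chaperones and quality control proteases, 11 rose and 0 fell (median log2 fold change 0.25). Without the 2 genes on chromosome 16 (Dnaja3 and Trap1), 9 of 16 rose and 0 fell, with a median of 0.20. Dnaja3, the J protein of the matrix, rose 1.63-fold to 53.5 ± 1.72 FPKM. The matrix protease Lonp1 rose 1.45-fold to 182 ± 14.5 FPKM, and Hscb, a J protein for iron-sulphur cluster assembly, rose 1.51-fold to 13.05 ± 1.09 FPKM. The matrix HSP70 Hspa9 went from 338 ± 11.7 to 393 ± 7.99 FPKM (log2 fold change 0.21, limma adjusted p = 0.00177), the HSP90 relative Trap1 from 63.9 ± 3.06 to 83.7 ± 0.973 FPKM, and the exchange factor Grpel1 from 16.7 ± 0.622 to 21.7 ± 0.65 FPKM, all higher.

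**Figure D4:**
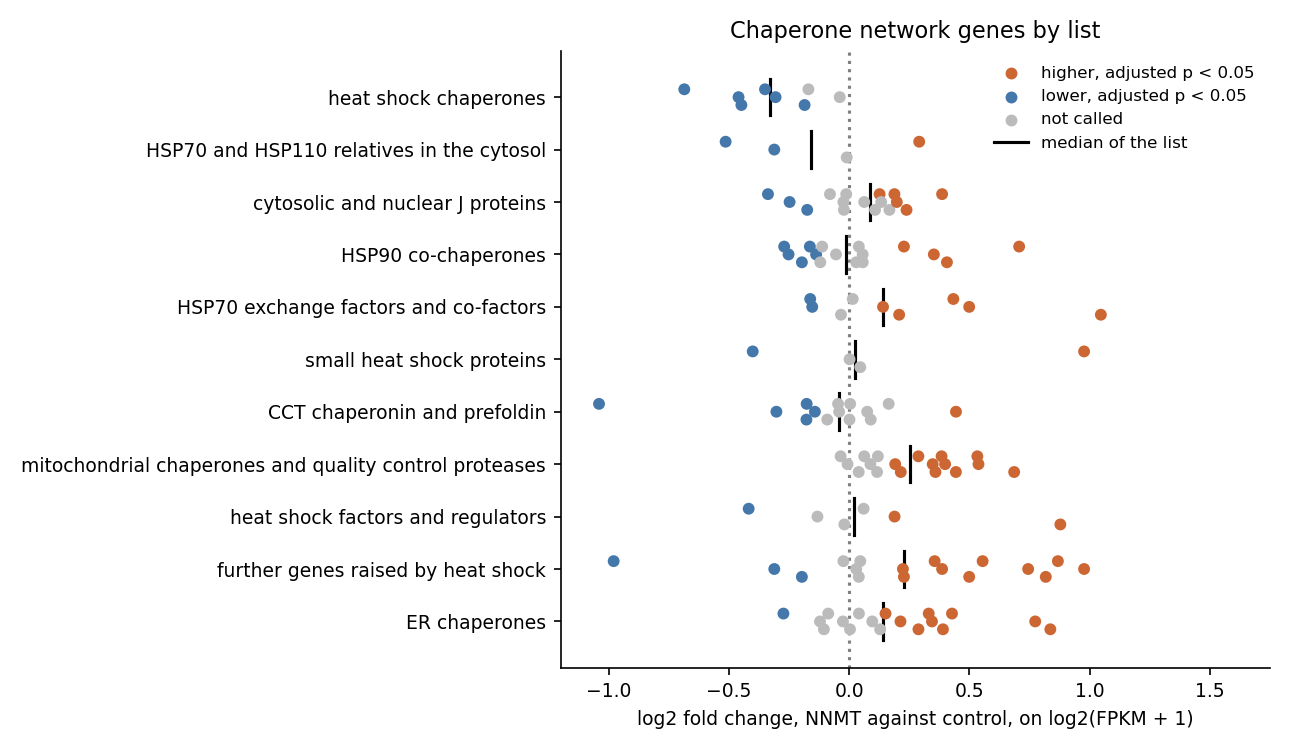
Log2 fold change, NNMT against control, of each tested gene in the 10 heat shock chaperones and in the lists of related genes; colour gives the call at an adjusted p under 0.05 and the black bar the list's median. The chaperones have a median of -0.33, the mitochondrial list 0.25 and the ER list 0.14.

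The heat shock factors and further genes that heat shock raises gave no single direction. Of 6 tested factors and regulators, 2 rose and 1 fell. The number that fell was 2 without control replicate 3, under quantile normalization, under median of ratios scaling and with limma-voom on recovered reads. It was also 2 with scaling on genes outside chromosomes X, Y, 4 and 16. Hsf1 went from 36.6 ± 0.231 to 41.9 ± 1.87 FPKM (limma adjusted p = 0.0049) and Hsf4 from 1.15 ± 0.0389 to 2.96 ± 0.297 FPKM, both higher. In control cells Hsf4 stood close to the 1 FPKM needed for a test, on 210 reads. Its log2 fold change ran from 0.22 to 1.35 over 18 alternatives, all of which passed. Hsf2 fell from 8.88 ± 0.438 to 6.42 ± 0.834 FPKM (limma adjusted p = 0.00104). Of 17 tested genes in the list of further heat-responsive genes, 10 rose and 3 fell (median 0.23). Many of them, such as Bag3, Dnajb4, Cryab and Hspa4l, are also in other lists, so the counts of the lists are not separate. The count for the whole network takes each gene once. Serpinh1, the collagen chaperone HSP47, rose 1.83-fold to 998 ± 20.4 FPKM, and Cryab, a small heat shock protein, rose 2.02-fold to 42.2 ± 3.96 FPKM. The haem oxygenase gene Hmox1 rose from 37.0 ± 2.41 to 62.6 ± 3.87 FPKM, and the polyubiquitin gene Ubb rose 1.17-fold. Jun, on chromosome 4 with a median of -0.23, fell from 63.3 ± 1.02 to 31.7 ± 2.35 FPKM. Of the 4 tested small heat shock proteins, Cryab rose, Hspb11 (an intraflagellar transport protein, also on chromosome 4) fell, and Hspb8 and Hspb6 did not pass, at log2 fold changes of 0.05 and 0.00.

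The endoplasmic reticulum has its own HSP70, HSP90, HSP110 and J proteins, and the ER list holds these beside folding factors of other families, such as the protein disulfide isomerase P4hb and the lectin chaperone Calr. Outside chromosome 16, 6 of 15 rose and 1 fell, where 35% of all tested genes were called higher and 30.6% lower. Of all 18 tested in the list, 9 rose and 1 fell (Dnajb9), with a median of 0.14. The lower count depended on the setting, with 9 higher and 4 lower under median of ratios scaling, 8 and 4 with scaling on genes outside chromosomes X, Y, 4 and 16, 10 and 2 under quantile normalization, and 9 and 3 without NNMT replicate 2. P4hb rose from 383 ± 2.13 to 486 ± 15.3 FPKM. Hspa13, on chromosome 16, rose 1.85-fold to 21.9 ± 0.406 FPKM, Sil1, the exchange factor of the ER HSP70, rose 1.77-fold to 24.03 ± 2.61 FPKM, and the ER relative of HSP110, Hyou1, rose 1.35-fold to 61.1 ± 2.91 FPKM. The ER HSP90, Hsp90b1, went from 278 ± 14.4 to 350.3 ± 20.6 FPKM (log2 fold change 0.33, limma adjusted p = 0.000511), opposite in direction to Hsp90ab1. The ER HSP70, Hspa5, was at 348 ± 13.7 and 328 ± 10.9 FPKM and did not pass (adjusted p = 0.133). The genes Hspa4, Dnaja1, Dnaja2, Stip1, Fkbp4, Unc45a, Hspa9, Trap1, Grpel1, Hmox1, Ubb, Hspb6, Dnajb9, P4hb, Hsp90b1 and Hspa5 are named after their values were seen. Exons of Tomm70a, Cdc37l1, Cct8, Tcp1, Dnaja3, Jun, Dnaja1, Grpel1, Hspb6 and Hsp90b1 overlap another gene at 1 FPKM or more, so their values are less certain where strand was not used in counting. Dnaja3 shares 160 exonic bases with Vasn (59.0 FPKM in control and 76.8 in NNMT cells) on the same strand, which counting by strand would not separate either.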

How the data were processed

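The deposited file is 1 table of normalized values, a column for each library. The authors made its FPKM values from reads aligned with STAR, per the submitters' processing notes; the unit is inferred, since the header names none. Within each of 20528 genes above 0 the values are whole multiples of a step (tolerance 0.01 of a read), which gave whole reads for 100.0% of these genes. The length behind the step was that of the longest annotated transcript for 71.11% of them and another annotated length for 1131. For 4800 genes it was fitted as the shortest length that gave whole reads, so for these the recovery could hardly fail. Per the submitters' processing notes the tools were CASAVA and STAR 2.5 and the build mm10. The sources used here name no counter, annotation, strand setting or rule for multi-mapping reads. The recovered reads sum to 99.86% of each implied total. Symbols come from GENCODE M21 (GRCm38) for 34490 of 35275 rows.

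With limma 3.58.1 (R 4.3.3), log2(FPKM + 1) was compared for each gene whose mean reached 1 FPKM (trend, robust, two-sided, Benjamini-Hochberg, threshold 0.05); the script was tested on simulated data. The design allowed a count test, and the test for normalized values was used because the table holds no counts. Pairs of libraries of a group differed beyond sampling noise (chi-square per degree of freedom 6.36 to 23.9). The members and gene lists were chosen with earlier results of these data known. Named genes are the 10 chaperones, up to 3 genes per list with the smallest adjusted p, Hsf1, Hsf2, Nnmt and the 5 nearest profiles to the member with the largest change; others are marked. Alternatives were other scalings, filters, pseudocounts and moderation, limma-voom on recovered reads, leaving out each library, and a replicate block. Transcript overlap counts 50-base stretches shared with other GENCODE M21 genes, and promoters were taken from RefSeq.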

Additional observations from a re-analysis of the deposited data

How the results depend on the processing

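Of the 10 chaperones, 0 were called higher under any of 19 alternatives and 5 to 7 were called lower, where the main count was 6. Hspa1b, Hsp90ab1, Hspa8, Hsph1 and Dnajb1 passed as lower under all 19, and Hspe1 passed under none. Hsp90aa1 passed under 9 and Hspd1 under 6, with adjusted p from 0.00186 to 0.28 and from 0.00548 to 0.33. The count of lower network genes was 13 to 22 when 1 library was left out (main 20) and 11 with TPM scaling, which was chosen after the data were seen and moved the median of all genes from 0.028 to 0.099; dividing by the summed FPKM raises NNMT values relative to control by its construction. Of 57 single genes examined, 48 kept their call under every alternative, and the others, besides Hsp90aa1 and Hspd1, were Ahsa1, Cct2, Dnaja2, Fkbp4, Hspa2, Hspa5 and Stip1. The 4 ratios kept their direction when any 1 library was left out and on recovered reads. With the replicate number as a block in the 4 libraries whose numbers both groups share, 7 chaperones were lower. Without the block in these 4 the count was 5. Control and NNMT libraries of unlike number had deviations correlated at -0.381 to 0.212. The 2 pairs of like number were at 0.212 and 0.11, and control replicate 1 and the unnumbered NNMT library at 0.314. Since that library's column carries no number, whether the numbers pair the samples was not settled, and the block was not fitted over all 6 libraries. At 10 to 22 reads per library, depth limits Hspa1a and Hspb1.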
